A study of Homo sapiens with 6 samples.

Results

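The enzymes described here place chemical modifications on transfer RNA. They were taken as a list of 58 gene symbols covering tRNA methylation, pseudouridine, deamination, dihydrouridine, wobble-base and queuosine enzymes, and each symbol matched exactly 1 of the 31853 genes in the deposited table. All 58 passed the filter on low counts and were among the 18138 genes tested. The cells were Mon-Mac-6, an established human line from a monocytic acute leukaemia, grown for 48 h with 500 nM WD6305 or with DMSO, the vehicle, and there were 3 libraries of poly(A) RNA in each group. WD6305 is named in the series as a PROTAC, a bifunctional compound that recruits a ubiquitin ligase to the protein to be degraded, and its target is METTL3, the enzyme that methylates adenosine in messenger RNA. The comparison addresses which RNAs differ after the degrader. The labels do not state whether replicate libraries came from separate cultures, so the p-values measure only the spread between libraries, which may be technical.

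Transfer RNAs carry more kinds of modified base than other cellular RNAs. Modifications in the body of the molecule, such as 1-methyladenosine in the T loop and 7-methylguanosine in the variable loop, help it fold and keep it from being degraded, while those in the anticodon loop tune how codons are read. Several of the enzymes are heterodimers in which one subunit carries the active site and the other binds the tRNA, and several share an activating partner such as TRMT112. METTL3 is not among these enzymes.

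Deposited counts summed to between 64525948 and 71155346 per library. The identity of the cells was read from summed FPKM, the authors' length- and depth-normalised unit. The 14 monocytic markers summed to 4885 to 5116 FPKM with DMSO and 8280 to 9124 with WD6305, and most of that sum was LYZ and ELANE. LYZ, ELANE, CD68, HLA-DRA, CSF1R, ITGAM, CD33 and SPI1 were higher with WD6305 without overlap. CD68 was at 88.82 to 100.3 FPKM against 41.25 to 44.63, and HLA-DRA at 17.9 to 19.0 against 1.76 to 2.42. CD14 was lower with WD6305 (7.38 to 8.39 FPKM, against 9.99 to 10.3), as was MPO (6.67 to 8.35, against 9.40 to 10.1). FCGR1A and CEBPA overlapped between groups, and CD4 and CD163 were at most 0.35. The 5 epithelial markers summed to 4.32 to 7.13 FPKM with DMSO and 2.68 to 3.02 with WD6305, and the T cell markers in the table to 2.31 to 2.90 and 0.93 to 1.66. B cell and erythroid markers summed to at most 0.79 FPKM. The part of these marker differences in the enzymes' results was not tested. The 7 keratinocyte markers in the table summed to between 49.0 and 58.9 FPKM in 4 libraries, and to 2.98 and 2.78 in DMSO 3 and WD6305 1, where KRT5 and KRT14 were at most 0.06 and KRT2 was at 0 in every library. DMSO 3 and WD6305 1 therefore stand apart from the other 4 libraries, 1 in each group, and fibroblast markers reached 4.33 FPKM in WD6305 1 against at most 0.27 elsewhere. In bulk RNA, fewer cells of a type and less RNA per cell cannot be told apart. METTL3 RNA was at 64.9 to 70.5 CPM (counts scaled to library size with TMM factors) with DMSO and 76.0 to 79.7 with WD6305. By the edgeR test described below it rose (log2 fold change 0.21, SE 0.05, adjusted p = 0.0218). A PROTAC acts on the protein, which was not measured.

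Of the 58 enzymes, 12 fell, 2 rose and 44 did not pass the test (the quasi-likelihood test of edgeR, with adjustment by Benjamini-Hochberg over all tested genes and a threshold of 0.05). The share that fell was 20.7%, against a background of 11.2% of all tested genes, and the share that rose was 3.45%, against 12.2%; 23.4% of all tested genes passed in either direction. Among the 11224 tested genes within the range of DMSO levels that the enzymes span, 14.6% fell and 16.7% rose. The median log2 fold change of the 58 was -0.12, against 0.0003 over all tested genes, and 41 of 58 values lay below 0, against 49.9% of all tested genes. The WD6305 libraries lay wholly below the DMSO libraries for 24 enzymes and wholly above for 8, against 20.3% and 20.4% of all tested genes. Without DMSO 3 and WD6305 1, the libraries that stand apart, 15 enzymes fell and 2 rose. In that fit 9.89% of all tested genes fell and 12.4% rose. No set test was made, and these shares describe the list beside its background.

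None of the 14 enzymes that passed changed by 2-fold or more in the main fit. TRMT61A came closest, at a log2 fold change of -0.99, and went beyond 2-fold in some alternative analyses (-1.04 at most). The median absolute difference of the 14 was 0.46 on the log2 scale, against 0.42 for all genes that passed. The FPKM of the 58 enzymes summed to 494.6, 483.8 and 491.3 with DMSO (libraries 1, 2 and 3), and to 419.4, 427.4 and 419.8 with WD6305. The WD6305 sum was thus 86.2% of the DMSO sum, with every WD6305 library below every DMSO library. The sum weighs abundant genes most. TRMT112, the most abundant, did not pass and had a mean of 56.8 FPKM with DMSO and 43.6 with WD6305. No background for this sum was computed.

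**Figure D1:**
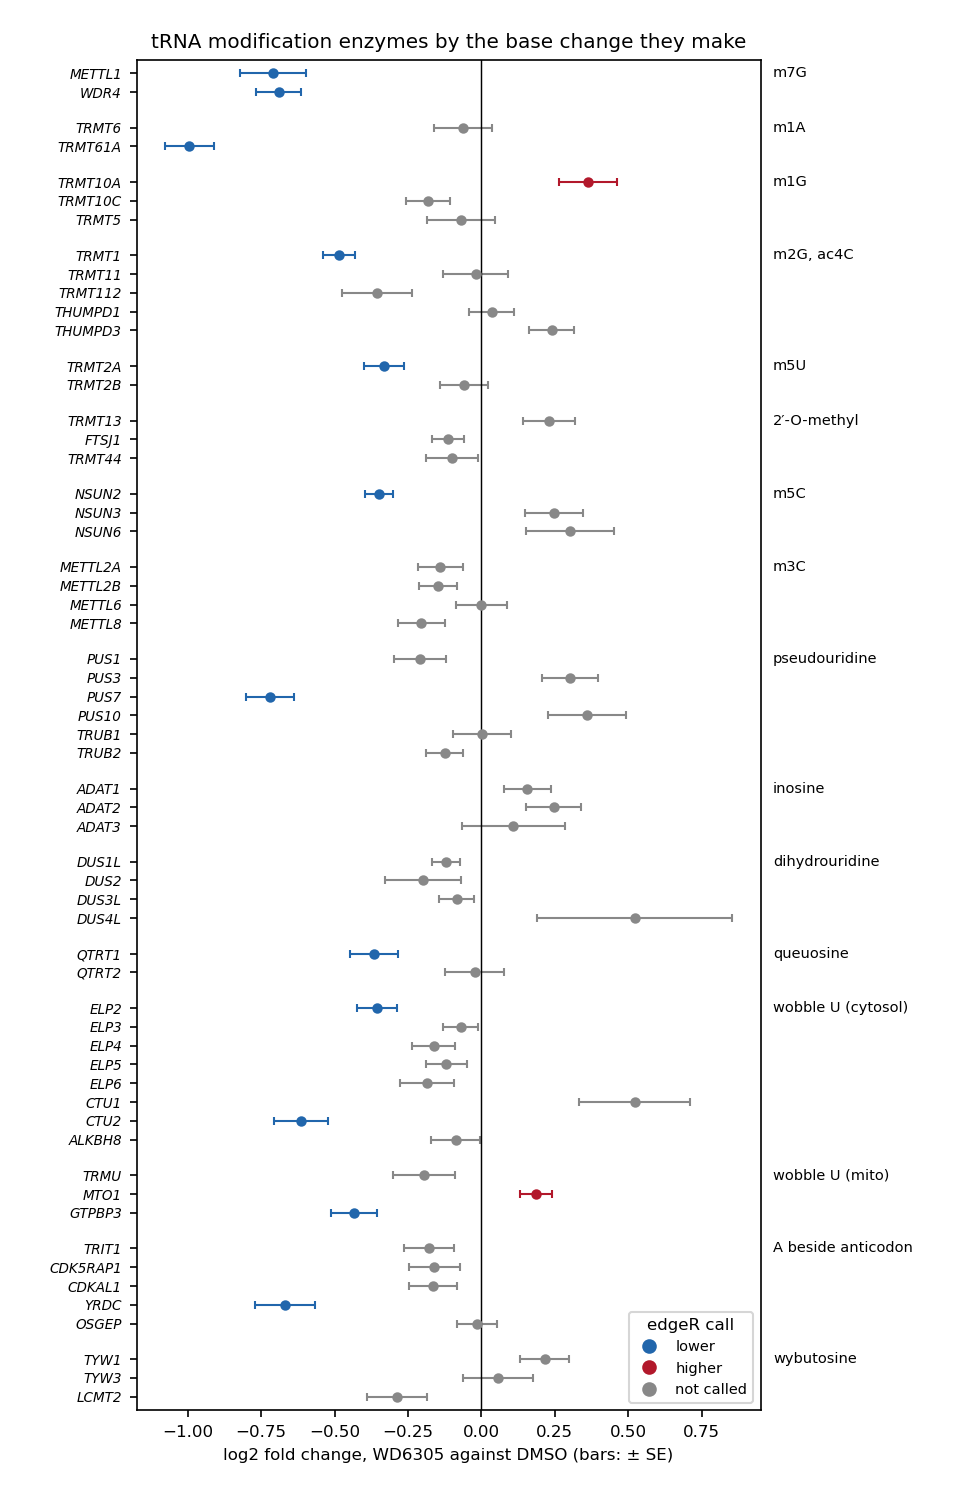
Log2 fold change (WD6305 against DMSO, with its standard error as a bar) of each of the 58 enzymes, grouped by the modification they make and coloured by the edgeR call. The 12 that fell lie between -0.99 and -0.33, and the 2 that rose at 0.19 and 0.36.

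TRMT61A fell the most. It is the catalytic subunit of the enzyme that makes 1-methyladenosine in the T loop, and the gene lies at chr14:103529196-103537073 (GRCh38, plus strand). Its level was 26.4, 23.5 and 23.9 CPM in DMSO 1, 2 and 3, and 11.7, 13.0 and 12.3 CPM in WD6305 1, 2 and 3. The groups were far apart, and the WD6305 level was 50.2% of the DMSO level (log2 fold change -0.99, SE 0.08, edgeR adjusted p = 0.000129). TRMT6, its tRNA-binding partner, was at 28.0, 25.9 and 31.2 CPM with DMSO and at 27.9, 24.3 and 29.1 CPM with WD6305. Its groups overlapped, and the log2 fold change was -0.06 (SE 0.10, edgeR adjusted p = 0.705). On the FPKM scale, where genes can be compared, the log2 ratio of TRMT61A to TRMT6 was 0.15, 0.09 and -0.15 with DMSO and -1.02, -0.66 and -1.01 with WD6305. The subunits therefore stood at near-equal RNA levels in the DMSO libraries, and TRMT61A below TRMT6 in every WD6305 library. The ratio had exact two-sided permutation p = 0.1, the smallest that 3 against 3 libraries allows, and did not pass.

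The promoters of this subunit pair are shown because TRMT61A RNA fell and TRMT6 RNA did not pass the test. That of QTRT1, a queuosine enzyme described later, is shown because it holds the single E-box among the enzymes' promoters. Each is the 250 bases before the RefSeq start on GRCh38.p14, written 5′ to 3′ on the gene's own strand: TRMT61A at chr14:103528946-103529195 (plus strand), TRMT6 at chr20:5950534-5950783 (minus strand) and QTRT1 at chr19:10701189-10701438 (plus strand). Capitals mark the letters CCGGAAG, the core of ETS-family sites, or their reverse complement CTTCCGG, and in QTRT1 the E-box CACGTG.
TRMT61A: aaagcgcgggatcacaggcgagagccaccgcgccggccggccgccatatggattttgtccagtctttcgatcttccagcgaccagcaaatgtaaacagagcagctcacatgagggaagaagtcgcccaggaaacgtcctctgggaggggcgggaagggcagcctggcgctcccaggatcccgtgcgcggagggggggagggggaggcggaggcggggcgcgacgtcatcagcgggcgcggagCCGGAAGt
TRMT6: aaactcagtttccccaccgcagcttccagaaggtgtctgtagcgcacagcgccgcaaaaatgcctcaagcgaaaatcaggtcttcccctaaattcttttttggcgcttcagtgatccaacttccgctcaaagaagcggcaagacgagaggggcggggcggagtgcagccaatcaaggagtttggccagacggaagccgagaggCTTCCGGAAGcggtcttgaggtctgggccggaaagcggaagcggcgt
QTRT1: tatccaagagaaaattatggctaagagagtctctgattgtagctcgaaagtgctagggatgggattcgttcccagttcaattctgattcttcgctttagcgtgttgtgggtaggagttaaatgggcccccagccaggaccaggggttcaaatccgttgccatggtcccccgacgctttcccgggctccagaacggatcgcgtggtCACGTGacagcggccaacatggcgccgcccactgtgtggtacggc
The ETS letters begin 8 bases before the TRMT61A start. In TRMT6 both orientations overlap, beginning 47 and 44 bases before its start. Both promoters of the pair thus hold these letters, although the RNA of TRMT61A fell and that of TRMT6 did not pass the test.

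RefSeq promoters were matched for 50 of the 58 enzymes, and 4 motifs were searched on both strands. The ETS letters CCGGAAG were in 14 of 50 (28.0%), against 13.5% of 16832 tested genes' promoters and 8.52% of all 35116 promoters. They were in 2 of 9 enzymes that fell (TRMT61A and YRDC) and in 12 of 40 that did not pass the test. The E-box CACGTG was in 1 of 50 (2.0%), against 8.12% of tested genes' promoters and 6.34% of all. CCAAT was in 13 of 50 (26.0%), against 32.0% of all promoters, and the palindromic NRF1 motif was in 0 of 50, against 1.03%. A match describes letters in this window and is neither a bound site nor a cause.

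METTL1 and WDR4, which together make 7-methylguanosine in the variable loop, fell alongside each other. METTL1, the catalytic subunit (chr12:57768471-57772119, minus strand), was at 15.6, 13.6 and 14.3 CPM with DMSO and at 8.87, 7.79 and 9.94 CPM with WD6305. WDR4, the scaffold subunit (chr21:42843094-42879568, minus strand), was at 40.4, 37.1 and 40.2 CPM with DMSO and at 25.1, 22.6 and 25.3 CPM with WD6305. Neither gene's groups overlapped. The log2 fold changes were -0.71 (SE 0.11, edgeR adjusted p = 0.0025) and -0.69 (SE 0.08, edgeR adjusted p = 0.000427). The log2 FPKM ratio of METTL1 to WDR4 was -0.95 ± 0.06 with DMSO and -0.97 ± 0.10 with WD6305 (SD, n = 3; exact two-sided permutation p = 0.7). Unlike the m1A pair, these subunits had ratios that overlapped between the groups. METTL1 overlaps EEF1AKMT3 on the opposite strand over 628 bases, and EEF1AKMT3 had a log2 fold change of 0.21 (edgeR adjusted p = 0.179).

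Other base methylations of the tRNA body held 2 further enzymes that fell. TRMT1, which makes dimethylguanosine at the hinge between the D arm and the anticodon arm (chr19:13104902-13116748, minus strand), was at 66.7, 70.8 and 69.2 CPM with DMSO and at 49.1, 49.3 and 49.2 CPM with WD6305. Its WD6305 libraries lay close together and all below DMSO (log2 fold change -0.49, SE 0.05, edgeR adjusted p = 0.000438). TRMT2A, which makes 5-methyluridine in the T loop of cytosolic tRNAs (chr22:20111875-20117392, minus strand), was at 48.2, 48.8 and 49.7 CPM with DMSO and at 38.7, 41.4 and 36.5 CPM with WD6305. The groups did not overlap (log2 fold change -0.33, SE 0.07, edgeR adjusted p = 0.00853). TRMT2A shares 1455 bases with RANBP1 on the opposite strand, and RANBP1 fell by 0.58 on the log2 scale (edgeR adjusted p = 9.52e-05). No source used here says whether reads were assigned by strand, so whether the counts kept RANBP1 and TRMT2A reads apart in this stretch is not known. TRMT2B, the mitochondrial counterpart, had a log2 fold change of -0.06.

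TRMT112, the small activating partner of several methyltransferases, had the highest RNA level of the 58 enzymes, 56.8 ± 6.75 FPKM with DMSO (SD, n = 3). It was at 75.4, 62.7 and 59.0 CPM with DMSO and at 43.5, 53.1 and 57.3 CPM with WD6305. The groups did not overlap but came within 2 CPM of each other, and the change missed the threshold (log2 fold change -0.36, SE 0.12, edgeR adjusted p = 0.0615). TRMT112 passed in 6 of 17 alternative analyses, among them DESeq2 (adjusted p = 0.0037) and edgeR without DMSO 3 (adjusted p = 0.0372). Of the catalytic subunits it activates here, THUMPD3, which makes 2-methylguanosine in the acceptor stem, had a log2 fold change of 0.24 (edgeR adjusted p = 0.0543, passing in 5 of 17 alternatives). TRMT11, which makes 2-methylguanosine in the D arm, had -0.02. THUMPD3 lies wholly within its antisense gene THUMPD3-AS1, which rose by 0.43 (edgeR adjusted p = 0.00318), so their reads cannot be told apart without strand. THUMPD1, the adaptor that NAT10 needs to acetylate cytidine, had a log2 fold change of 0.04, and it lies wholly within ACSM3 on the opposite strand, which rose by 1.83 (edgeR adjusted p = 2.54e-05; 0.66 FPKM with DMSO and 2.34 with WD6305).

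Of the purine-9 and 1-methylguanosine enzymes, TRMT10A, which methylates guanosine at the ninth position of cytosolic tRNAs (chr4:99546709-99564039, minus strand), rose. It was at 8.29, 8.49 and 8.16 CPM with DMSO and at 10.6, 9.91 and 11.5 CPM with WD6305. The groups did not overlap (log2 fold change 0.36, SE 0.10, edgeR adjusted p = 0.0285). The call was lost in 9 of 17 alternatives at adjusted p = 0.0526 to 0.30, which include leaving out any 1 library other than WD6305 2 and, at 0.108, leaving out DMSO 3 and WD6305 1. TRMT10C, which methylates mitochondrial tRNAs as part of mitochondrial RNase P, had a log2 fold change of -0.18. TRMT5, which makes 1-methylguanosine beside the anticodon, had -0.07.

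Among the 5-methylcytosine enzymes, NSUN2, which modifies many cytosolic tRNAs (chr5:6599239-6633291, minus strand), was at 152, 146 and 146 CPM with DMSO and at 119, 118 and 112 CPM with WD6305. It fell to 78.5% of the DMSO level without overlap (log2 fold change -0.35, SE 0.05, edgeR adjusted p = 0.00105). Its FPKM of 25.6 ± 0.42 was the highest with DMSO among the 14 enzymes that passed. NSUN3, which acts on the mitochondrial methionine tRNA, and NSUN6, which acts on the acceptor stem, were near 1 FPKM and had log2 fold changes of 0.25 and 0.30 (edgeR adjusted p = 0.109 and 0.188). The 4 genes for 3-methylcytosine, METTL2A, METTL2B, METTL6 and METTL8, had log2 fold changes from -0.21 to -0.0007, and none passed edgeR or DESeq2 (1 lower at an unadjusted edgeR p under 0.05). METTL2A and METTL2B are close copies: 12.4% of the 100-base stretches of METTL2A transcripts are also in METTL2B, so reads can be split between them. The ribose methyltransferases TRMT13, FTSJ1 and TRMT44 ranged from -0.11 to 0.23, and none passed edgeR or DESeq2 (1 higher at an unadjusted edgeR p under 0.05).

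PUS7 had the second largest fall. It is a pseudouridine synthase that recognises a short sequence motif in tRNAs and messenger RNAs (chr7:105439661-105522267, minus strand). Its level was 30.4, 27.2 and 31.7 CPM with DMSO and 18.7, 17.4 and 18.1 CPM with WD6305. The WD6305 libraries were all below the lowest DMSO library, at 60.7% of the DMSO level (log2 fold change -0.72, SE 0.08, edgeR adjusted p = 0.000471). The other 5 pseudouridine synthases did not pass. PUS1 and TRUB2 had log2 fold changes of -0.21 and -0.13, TRUB1 had 0.0023, and PUS10, among the lowest of the 58 at 0.77 FPKM with DMSO, had 0.36. PUS3, which modifies the anticodon arm, was at 10.3, 9.80 and 11.6 CPM with DMSO and at 13.5, 12.5 and 13.1 CPM with WD6305. PUS3 did not overlap between groups and had a log2 fold change of 0.30 (edgeR adjusted p = 0.0526, passing in 3 of 17 alternatives). It shares 73.6% of its span with HYLS1 on the opposite strand, whose log2 fold change was also 0.30.

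**Figure D2:**
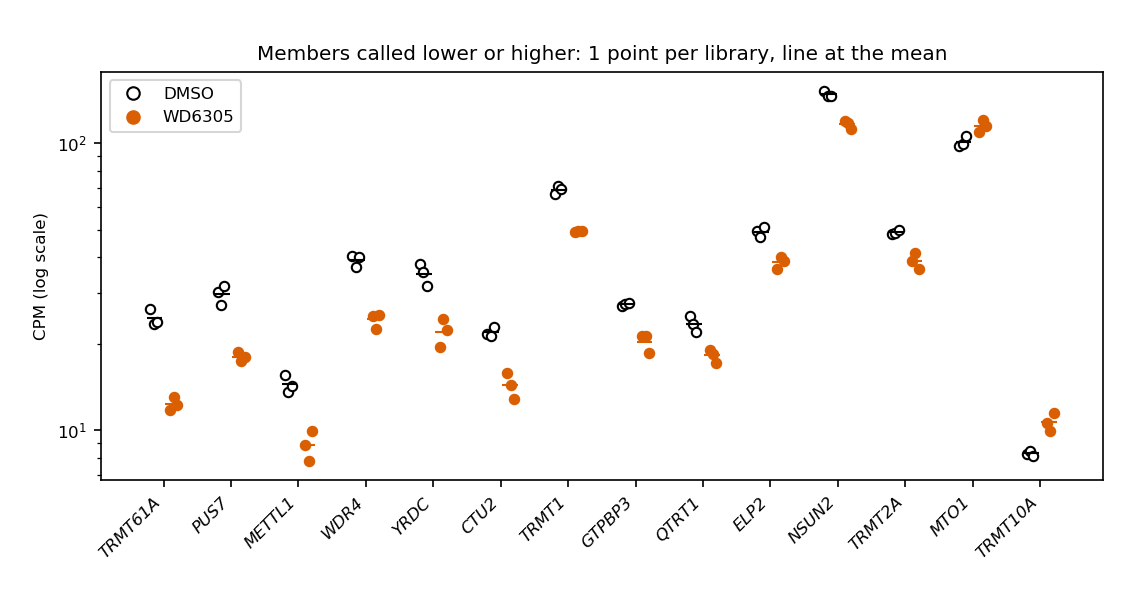
CPM on a log axis for the 14 enzymes that passed the test, with open points for the 3 DMSO libraries, filled points for the 3 WD6305 libraries and a line at each group's mean. The groups do not overlap for any of these genes. TRMT61A goes from 23.5 to 26.4 CPM with DMSO to 11.7 to 13.0 with WD6305.

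The deaminases and dihydrouridine synthases held no enzyme that passed edgeR or DESeq2. ADAT1, ADAT2 and ADAT3, which turn adenosine into inosine, had log2 fold changes of 0.16, 0.25 and 0.11 (1 higher at an unadjusted edgeR p under 0.05), and in each the groups overlapped. ADAT3 lies wholly within SCAMP4 on the same strand and shares 25.0% of its 100-base stretches with it. SCAMP4 fell by 0.34 on the log2 scale (edgeR adjusted p = 0.0109), so the ADAT3 value is uncertain. DUS1L, DUS2 and DUS3L, which reduce uridine to dihydrouridine, had log2 fold changes from -0.20 to -0.08 (1 lower at an unadjusted edgeR p under 0.05). DUS4L had the lowest level of the 58, 0.68 ± 0.18 FPKM with DMSO (SD, n = 3), and a log2 fold change of 0.52 with an SE of 0.33. It shares 96.7% of its span with the readthrough gene DUS4L-BCAP29.

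At the wobble position, 1 of the subunits that insert queuosine fell. QTRT1, the catalytic subunit (chr19:10701430-10713365, plus strand), was at 25.0, 23.5 and 21.9 CPM with DMSO and at 19.0, 18.5 and 17.2 CPM with WD6305. The groups did not overlap (log2 fold change -0.36, SE 0.08, edgeR adjusted p = 0.0121), and without WD6305 3 the call was lost (adjusted p = 0.0619). QTRT2, its partner, was at 33.3, 29.2 and 35.5 CPM with DMSO and at 29.2, 31.6 and 35.6 CPM with WD6305. The QTRT2 groups overlapped (log2 fold change -0.02). The log2 FPKM ratio of QTRT1 to QTRT2 was 0.76 ± 0.20 with DMSO and 0.42 ± 0.22 with WD6305 (SD, n = 3; exact two-sided permutation p = 0.2), with overlapping libraries. Without DMSO 3 and WD6305 1 the ratios no longer overlapped (0.82 and 0.92 against 0.46 and 0.18), and their difference moved from -0.34 to -0.55.

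Wobble uridines of cytosolic tRNAs are modified by Elongator, by ALKBH8 and by the tRNA-thiolating enzyme of CTU1 and CTU2. CTU2 (chr16:88706483-88715386, plus strand) was at 21.6, 21.4 and 22.9 CPM with DMSO and at 15.8, 14.3 and 12.9 CPM with WD6305. It fell without overlap to 65.3% of the DMSO level (log2 fold change -0.62, SE 0.09, edgeR adjusted p = 0.00185). CTU1, the catalytic partner, was at 2.41, 3.03 and 2.79 CPM with DMSO and at 4.37, 3.14 and 4.31 CPM with WD6305. CTU1 thus lay in the other direction without overlap, but missed the threshold (log2 fold change 0.52, SE 0.19, edgeR adjusted p = 0.0792; 0.0425 without WD6305 2). The log2 FPKM ratio of CTU1 to CTU2 was -2.44, -2.09 and -2.30 with DMSO and -1.13, -1.46 and -0.85 with WD6305. CTU2 RNA was the more abundant in every library, by less under WD6305, but the ratio did not pass (exact two-sided permutation p = 0.1).

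ELP2, an Elongator scaffold subunit (chr18:36129444-36180557, plus strand), fell. It was at 49.6, 47.0 and 51.0 CPM with DMSO and at 36.3, 40.2 and 38.8 CPM with WD6305. All WD6305 libraries lay below DMSO (log2 fold change -0.36, SE 0.07, edgeR adjusted p = 0.00618). ELP3, the catalytic subunit, was at 77.5, 77.2 and 70.8 CPM with DMSO and at 74.7, 69.2 and 70.7 CPM with WD6305, with overlapping groups and a log2 fold change of -0.07. The accessory ring ELP4, ELP5 and ELP6 had log2 fold changes of -0.16, -0.12 and -0.19, and ALKBH8, which completes some of these side chains, had -0.09. None of these 5 passed edgeR.

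In mitochondria, GTPBP3 and MTO1 together build the taurine side chain on wobble uridine. The log2 FPKM ratio of MTO1 to GTPBP3 did not overlap between groups, but did not pass (exact two-sided permutation p = 0.1). GTPBP3, the GTPase (chr19:17334920-17342731, plus strand), was at 27.2, 27.5 and 27.8 CPM with DMSO and at 21.2, 21.2 and 18.6 CPM with WD6305. It fell to 74.1% of the DMSO level (log2 fold change -0.43, SE 0.08, edgeR adjusted p = 0.00448). MTO1, the flavoprotein partner (chr6:73461578-73502427, plus strand), was at 97.5, 98.9 and 106 CPM with DMSO and at 109, 120 and 114 CPM with WD6305. MTO1 rose without overlap (log2 fold change 0.19, SE 0.05, edgeR adjusted p = 0.0389), and the call was lost in 10 of 17 alternatives at adjusted p = 0.0695 to 0.146, among them leaving out DMSO 1, DMSO 2, WD6305 2 or WD6305 3. It overlaps EEF1A1, one of the most abundant RNAs at 1427 FPKM with DMSO, on the opposite strand over 32.1% of its span, so the MTO1 value depends on how counting treated strand. EEF1A1 had a log2 fold change of 0.11 (edgeR adjusted p = 0.239). TRMU, the enzyme that thiolates mitochondrial tRNAs, had a log2 fold change of -0.20 (edgeR adjusted p = 0.226), and passed without DMSO 3 (0.0166).

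Of 5 enzymes that place threonylcarbamoyl, isopentenyl or methylthio groups on the adenosine beside the anticodon, 1 passed. YRDC, which makes the activated threonylcarbamoyl group (chr1:37802945-37808208, minus strand), was at 37.9, 35.4 and 31.8 CPM with DMSO and at 19.5, 24.3 and 22.3 CPM with WD6305. It fell without overlap to 62.9% of the DMSO level (log2 fold change -0.67, SE 0.10, edgeR adjusted p = 0.00199). OSGEP, which transfers that group to tRNA, had a log2 fold change of -0.01 (0.02 without WD6305 1). TRIT1, the isopentenyl transferase, CDK5RAP1 and CDKAL1, which add methylthio groups, had -0.18, -0.16 and -0.17 (edgeR adjusted p = 0.175, 0.227 and 0.184). Of the wybutosine enzymes of phenylalanine tRNA, TYW1, TYW3 and LCMT2 had 0.22, 0.06 and -0.29. None of the wybutosine enzymes passed edgeR (1 lower and 1 higher at an unadjusted p under 0.05), and LCMT2 passed DESeq2 (adjusted p = 0.0335).

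Across 18 pairs of genes, 17 whose proteins act together and 1 of close copies, the log2 FPKM ratio of the first to the second differed without overlap between groups in 7. Among single genes, 40.8% of all those tested did not overlap in CPM in either direction. No share was computed for other gene pairs, so the 7 have no background of their own. The largest differences, WD6305 minus DMSO, were 1.13 for CTU1 to CTU2, -0.93 for TRMT61A to TRMT6, 0.62 for MTO1 to GTPBP3 and 0.60 for THUMPD3 to TRMT112. The others without overlap were 0.35 for THUMPD1 to NAT10, 0.29 for ELP3 to ELP2 (0.15 without DMSO 3 and WD6305 1) and 0.27 for TRMT10C to HSD17B10. Each had exact two-sided permutation p = 0.1, the smallest that 3 against 3 libraries allows, and 0.257 after Benjamini-Hochberg adjustment over the 18 pairs, so no ratio passed. The smallest differences were 0.01 for METTL2A to METTL2B and -0.02 for METTL1 to WDR4.

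**Figure D3:**
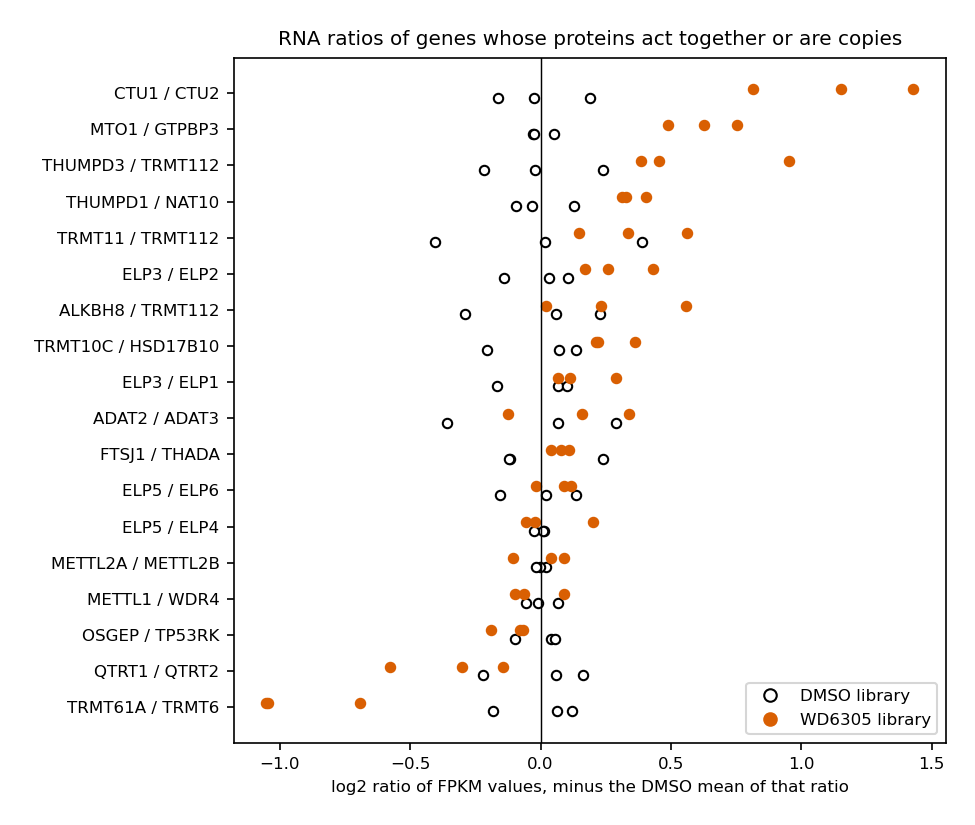
Log2 FPKM ratio of the first gene to the second in each library, minus the DMSO mean of that ratio, for 18 pairs, with open points for the 3 DMSO and filled points for the 3 WD6305 libraries. The DMSO and WD6305 points separate in 7 pairs, by 1.13 for CTU1 to CTU2 and -0.93 for TRMT61A to TRMT6, and overlap for METTL1 to WDR4. No share was computed for other gene pairs.

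Further genes of the same pathway that are not among the 58 went both ways. Of 35 such genes, 6 fell and 4 rose (17.1% and 11.4%), against 11.2% and 12.2% of all tested genes. The median log2 fold change of the 35 was -0.02, and without DMSO 3 and WD6305 1, 3 fell. PUSL1, a mitochondrial pseudouridine synthase, fell by 0.60 on the log2 scale. NAT10, the cytidine acetyltransferase, fell by 0.31, and HSD17B10, the partner of TRMT10C, fell by 0.45. GON7, a subunit of the complex that holds OSGEP, rose by 0.65 (edgeR adjusted p = 0.0018). Lists for the steps before and after modification held more genes that fell than rose. Of 28 tRNA processing and export genes 9 fell and 1 rose (32.1% and 3.57%), with a median of -0.16. Those that fell included POP1 of RNase P (-0.66) and the ligase subunit DDX1 (-0.43). Of 43 aminoacyl-tRNA synthetases, which charge tRNAs with amino acids, 21 fell and 2 rose (48.8% and 4.65%), with a median of -0.21. FARSB (-0.64) and VARS1 (-0.56) were among those that fell. Among 25 methyltransferases of rRNA, caps and snRNA, 4 fell and 2 rose, with a median of -0.13. Whether the lists differ from each other was not tested.

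**Figure D4:**
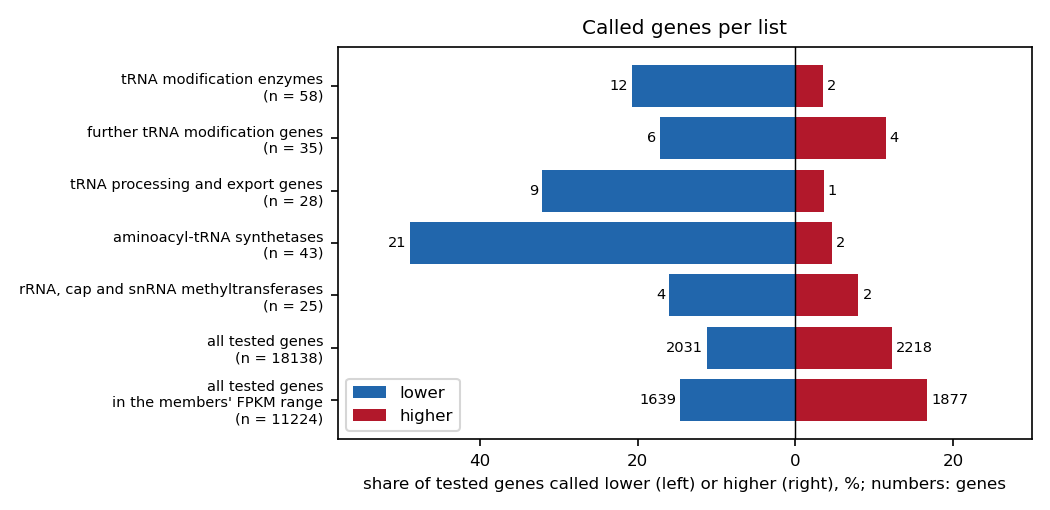
Percent of each list called lower and higher by edgeR, with all tested genes as the background. The 58 tRNA modification enzymes show 20.7% lower and 3.45% higher, the aminoacyl-tRNA synthetases 48.8% and 4.65%, and all tested genes 11.2% and 12.2%.

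The enzymes that fell and those that did not pass differed in median transcript GC. The median GC of the longest annotated transcript was 58.2% for the 12 that fell, 44.2% for the 44 that did not pass and 38.8% for the 2 that rose. Over the 58 enzymes, log2 fold change and GC had a Spearman rho of -0.49, against -0.17 over 17643 tested genes with a GC value. With DMSO FPKM the rho was -0.43, against -0.05 over all tested genes. These are correlations across genes measured in the same 6 libraries, given as a description, since genes are not independent replicates. A smooth trend on GC was then removed from each library's deviations from the gene means. With it removed, 15 enzymes fell and 0 rose by edgeR (5 higher at an unadjusted p under 0.05). In that fit 13.2% of all tested genes fell and 12.5% rose. TRMT61A, PUS7, METTL1 and WDR4 then had log2 fold changes of -0.93, -0.79, -0.66 and -0.63. The calls of MTO1 and TRMT10A were lost (adjusted p = 0.11 and 0.30), and TRMT10C, METTL8 and ELP4 passed as lower (0.0157, 0.0276 and 0.0256). Beyond this correction, the part of base composition in the changes was not tested.

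**Figure D5:**
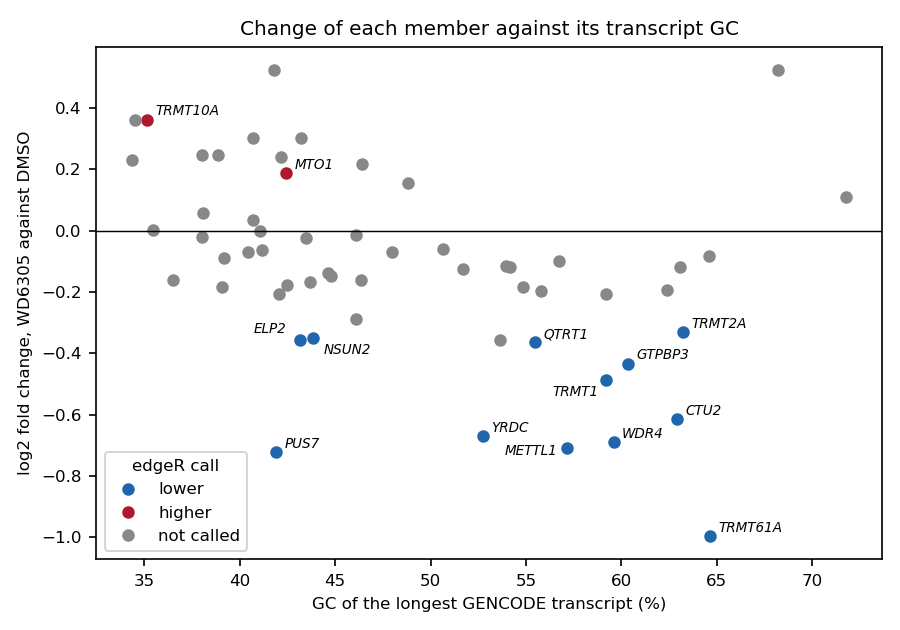
Log2 fold change of the 58 enzymes (vertical axis) against the GC percentage of the longest transcript (horizontal axis), coloured by edgeR call. Most of the enzymes that fell lie above 50% GC, while PUS7, ELP2 and NSUN2 fell with GC between 41.9% and 43.8%.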

How the data were processed

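Poly(A) RNA from 3 DMSO and 3 WD6305 libraries was sequenced in pairs after a dUTP second strand, per the labels' protocols. Per the submitters' processing notes, the authors used fastp, HISAT2, StringTie and edgeR on GRCh38; no source used here gives their versions, their settings or whether counting used strand. The deposited table holds the authors' estimated counts, already whole numbers, and their FPKM values, rounded to 2 decimals, with 0 columns of other samples. In each library 1071 to 1176 genes have a count of 4, against 553 to 636 with 3, so 1 fragment may be worth 4 counts. Error was therefore taken from the spread between libraries.

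Genes were filtered with filterByExpr, scaled by TMM (factors 0.987 to 1.02) and compared with the quasi-likelihood test of edgeR 4.0.16 under R 4.3.3, two-sided, with Benjamini-Hochberg adjustment over 18138 genes at 0.05 and a biological coefficient of variation of 20.8%. DESeq2 1.42.0, limma 3.58.1 on log2(FPKM + 1) and log2(FPKM + 0.1), other scalings and filters, counts divided by 4, a replicate block and left-out libraries were alternatives. A GC correction was chosen after seeing the data. Within groups, library pairs differed by more than counting noise (chi-square per degree of freedom 3.77 to 10.4, counts divided by 4). The main edgeR fit was tested on simulated counts with the same coefficient of variation for every gene and without units of 4 counts. The alternatives were not tested on simulated counts.

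Same-numbered libraries did not deviate together: their deviations from group means correlated at -0.23, 0.01 and -0.15 over 11144 genes. DMSO 3 and WD6305 1, the libraries low in keratins, correlated at 0.23, DMSO 1 and WD6305 3 at 0.15, and DMSO 1 and WD6305 2 at 0.12. Deviations within a group cancel out, so these values constrain each other and cannot exclude a pairing by replicate number. The 58 enzymes, the other gene lists, the pairs and the motifs were chosen with earlier results of these data known. Values per library are given for the enzymes that passed, in order of absolute log2 fold change up to 16 lower and 8 higher, and for their listed partners; TRMT112 and PUS3 were added after their values were seen. Of each further list, at most 4 genes with the smallest adjusted p are named, besides TYW1B, which is named for the sequence it shares with TYW1. Promoters are from RefSeq, and transcript GC is from GENCODE.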

Additional observations from a re-analysis of the deposited data

How the results depend on the processing

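Over 17 alternatives the count of enzymes that fell stayed between 11 and 15, against 12, and 11 of the 14 enzymes that passed did so in every one; QTRT1 lost its call without WD6305 3, and MTO1 and TRMT10A in 10 and 9 alternatives. The share of all tested genes that fell moved with the setting, from 5.14% with no filter to 19.9% with an FPKM filter of at least 1. With that FPKM filter 14 enzymes fell, and DUS4L and PUS10 did not pass the filter and were not tested. With DESeq2 14 fell, against 16.9% of the genes to which DESeq2 gave an adjusted p. The count of enzymes that rose, 2, was less stable. It was 1 with library sizes alone, 1 with no filter, 1 with limma on log2(FPKM + 0.1), 4 with an FPKM filter of at least 1 and 4 with counts divided by 4. It was 0 with limma on log2(FPKM + 1) (6 higher at an unadjusted p under 0.05) and 0 with the GC correction (5 higher at an unadjusted p). It ranged from 0 to 5 when single libraries were left out, the 5 (ADAT2, MTO1, PUS3, THUMPD3 and TRMT13) being without DMSO 3, where DUS1L, TRMT112 and TRMU also passed as lower. Without WD6305 2, CTU1 passed as higher and LCMT2 as lower. Under a block for replicate number it was 0 in edgeR (8 at an unadjusted p under 0.05), 12 enzymes still fell, and of the further pathway genes 3 fell rather than 6. Whether the replicate numbers pair the libraries is not known.

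Of the further pathway genes, 3 fell without DMSO 3 and WD6305 1, and 3 to 8 when single libraries were left out, the 3 being without WD6305 1. The 4 that rose became 2 with limma on log2(FPKM + 0.1) and 2 to 5 without single libraries, the 2 being without DMSO 2 or WD6305 1. Over all tested genes the counts without single libraries were 1310 to 2077 lower and 1446 to 2563 higher, lowest without WD6305 3. The cause of these shifts was not tested. The 14 enzymes that passed had the same sign in every alternative run. Of those that did not pass, 10 changed sign in at least 1 (ADAT3, METTL6, OSGEP, QTRT2, THUMPD1, TRMT11, TRMT5, TRMT6, TRUB1 and TYW3), as did 5 pair ratios whose groups overlapped. Library sizes alone gave 2334 lower and 1998 higher over all genes, against 2031 and 2218. The largest SE of the 58, 0.33, was that of DUS4L at 0.68 FPKM, while ELP4 at 1.08 FPKM had 0.07.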
